A study of Homo sapiens with 16 samples.

Results

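The insulin-like growth factor (IGF) system was followed through 10 genes, chosen by name: the binding proteins IGFBP2, IGFBP3, IGFBP4, IGFBP5 and IGFBP6, the receptors IGF1R, INSR and IGF2R, and the receptor substrates IRS1 and IRS2. They are 10 of the 62703 genes in the deposited count table, and all 10 were among the 10566 genes that passed the filter on low counts. The choice rested partly on measured values, because the response of IGFBP3 to MED12 knockdown in LNCaP and in PC3, and the difference between those responses, was part of the rule. Those values are therefore given as a description with no test.

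The counts came from 16 libraries of spheroids of LNCaP, 22Rv1 and PC3, established human prostate cancer cell lines. LNCaP depends on androgen and is sensitive to the androgen receptor inhibitor enzalutamide, 22Rv1 responds to androgen but resists the drug, and PC3 lacks the androgen receptor. All cells received 25 pmol of small interfering RNA, either a pool against MED12 (siMED12) or a non-targeting pool (siCtrl), then spent 3 days in 2D culture and 4 days as spheroids, and none of these groups received enzalutamide. Each siCtrl group and the LNCaP siMED12 group had 3 libraries, and the siMED12 groups of 22Rv1 and PC3 had 2, numbered 1 and 3. The study's methods describe its experiments in general as biological replicates, while the labels do not say how the replicates of these libraries were made, so p-values measure only the spread between these libraries. A knockdown by siRNA is transient and partial, and each line stands for the tumor of 1 patient.

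IGF-1 and IGF-2 act through the receptor tyrosine kinase IGF1R, and insulin acts through its relative INSR. Both receptors phosphorylate the adaptors IRS1 and IRS2, which recruit phosphatidylinositol 3-kinase and so feed the AKT and mTOR pathways. IGF2R, the cation-independent mannose-6-phosphate receptor, takes up IGF-2 and carries it to lysosomes without a kinase signal of its own. The secreted IGF-binding proteins hold IGFs in the extracellular space, limit or prolong their access to IGF1R, and have effects of their own on cells. Prostate epithelium and prostate cancers secrete several of them, and IGFBP3 is the main carrier of IGFs in serum.

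Library totals ran from 479118 to 993807 counts, so that 3 counts, taken as the most that a count of 0 still allows, equal 3.15 to 6.22 CPM (counts scaled to a common library total) depending on the library. Such floors, and the intervals given below, cover counting error only. Levels are in CPM after TMM scaling, which corrects for differences in RNA composition between libraries. A count marks the 3′ end of a transcript and is not scaled by transcript length. Levels of 1 gene can therefore be compared between lines, and levels of different genes only roughly. In bulk spheroids, fewer expressing cells and less RNA per cell cannot be told apart.

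The targeted transcript was close to the detection limit. MED12 had 6, 9 and 11 counts in LNCaP siCtrl and 5, 5 and 9 in LNCaP siMED12. It had 18, 10 and 15 counts in 22Rv1 siCtrl against 7 and 7 in siMED12, and 22, 8 and 13 in PC3 siCtrl against 12 and 7. The groups did not overlap in 22Rv1, which groups this small can show by chance, and overlapped in LNCaP and PC3. The log2 fold changes were -0.50 (adjusted p = 0.878 by the edgeR quasi-likelihood test) in LNCaP, -1.28 (adjusted p = 0.175) in 22Rv1 and -0.22 (adjusted p = 0.987) in PC3. Counts this low measure the extent of a knockdown poorly. The study reports that MED12 was knocked down with high efficiency in its spheroids.

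The line labels were compared with marker genes. The summed level of 6 markers of androgen receptor-positive cells was 5855 to 6452 CPM in LNCaP siCtrl, 623.3 to 645.2 CPM in 22Rv1 siCtrl and 93.57 to 114.8 CPM in PC3 siCtrl. The summed level of 6 PC3 markers was 1600 to 1719 CPM in PC3 siCtrl. Markers of fibroblasts and endothelium summed to between 0.0 and 109.7 CPM, highest in PC3, with DCN at 0 in all 16 libraries. In PC3 siCtrl most of that sum was COL1A1, at 59.92 to 98.04 CPM, and PECAM1 had 1.051 to 9.03 CPM. Single libraries stood apart in such sums. In 22Rv1 siMED12 replicate 3 the PC3 markers summed to 184.7 CPM, against 114.5 CPM in replicate 1 and 89.82 to 100.3 CPM in the 22Rv1 siCtrl libraries. In PC3 siMED12 replicate 3 the 4 LNCaP markers summed to 149.3 CPM, against 26.38 to 50.57 CPM in the other PC3 libraries. In LNCaP siCtrl the PC3 markers summed to 66.27, 68.74 and 144.2 CPM. The highest of these sums was in replicate 3, where VIM alone had 135.7 CPM. In LNCaP siMED12 they summed to 41.37 to 109.2 CPM.

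In siCtrl spheroids, IGFBP2 was the leading binding protein transcript of LNCaP and IGFBP4 that of PC3, while 22Rv1 held little beyond IGFBP2 and IGFBP3. The 5 transcripts together reached 900.8 to 1021 CPM in LNCaP, 238.1 to 285.8 CPM in 22Rv1 and 1370 to 1607 CPM in PC3. IGFBP2 made up 79.26% to 91.72% of that sum in LNCaP, 52.48% to 71.58% in 22Rv1 and 12.13% to 14.26% in PC3. IGFBP4 made up 57.02% to 58.75% in PC3 and at most 3.465% in the siCtrl libraries of the other lines.

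The genes lie apart in the genome except for 1 pair. On GRCh38 (Gencode release 44), IGFBP2 (ENSG00000115457) covers chr2:216632828-216664436 on the plus strand, and IGFBP5 (ENSG00000115461) covers chr2:216672105-216695549 on the minus strand, so that their 3′ ends face each other across 7668 bases. IGFBP3 (ENSG00000146674) is at chr7:45912245-45921874 on the minus strand. IGFBP4 (ENSG00000141753) is at chr17:40443450-40457725 and IGFBP6 (ENSG00000167779) at chr12:53097436-53102345, both on the plus strand. All 10 genes were found in the RefSeq promoter table for GRCh38.p14, and the 150 bases before the RefSeq start of each binding protein gene are shown because 3 of these genes were highest in PC3, 1 was highest in LNCaP and IGFBP3 was counted in all lines. Each is printed 5′ to 3′ on the strand of the gene. They come from chr2:216632678-216632827 (IGFBP2, plus, the first of 3 listed starts), chr7:45921273-45921422 (IGFBP3, minus), chr17:40443300-40443449 (IGFBP4, plus), chr2:216695550-216695699 (IGFBP5, minus) and chr12:53097517-53097666 (IGFBP6, plus). For IGFBP3 and IGFBP6 the Gencode gene begins upstream of the RefSeq start, so these windows lie inside the Gencode gene. Capitals mark every match, on either strand, to the TATA box letters TATAAA and to the GC box letters GGGCGG, whose reverse complement reads CCGCCC. No matches to these motifs overlap.
IGFBP2: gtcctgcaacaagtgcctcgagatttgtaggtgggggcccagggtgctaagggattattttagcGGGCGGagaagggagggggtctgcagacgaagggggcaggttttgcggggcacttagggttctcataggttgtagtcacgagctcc
IGFBP3: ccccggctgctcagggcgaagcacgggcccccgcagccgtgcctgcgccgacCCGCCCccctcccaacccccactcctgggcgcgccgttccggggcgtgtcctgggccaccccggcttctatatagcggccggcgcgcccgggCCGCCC
IGFBP4: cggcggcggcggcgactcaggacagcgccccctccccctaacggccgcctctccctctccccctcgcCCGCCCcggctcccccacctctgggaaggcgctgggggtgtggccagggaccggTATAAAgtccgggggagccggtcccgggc
IGFBP5: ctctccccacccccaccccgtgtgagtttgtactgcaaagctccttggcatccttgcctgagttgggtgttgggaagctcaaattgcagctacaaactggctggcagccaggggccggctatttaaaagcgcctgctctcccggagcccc
IGFBP6: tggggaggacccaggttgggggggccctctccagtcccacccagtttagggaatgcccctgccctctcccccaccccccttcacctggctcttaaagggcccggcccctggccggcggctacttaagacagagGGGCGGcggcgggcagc

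TATAAA occurred in IGFBP4 only, from 29 to 24 bases before its start, and 6.71% of all 35116 promoter windows of this length held it. GGGCGG occurred in IGFBP2, IGFBP3, IGFBP4 and IGFBP6, with 2 matches in IGFBP3, and in 36.8% of all windows. The GC content of the 5 windows ran from 58.0% (IGFBP2) to 80.0% (IGFBP3), against a median of 60.0% over all windows. IGFBP4, IGFBP5 and IGFBP6, which shared a PC3-high pattern, had no motif in common. IGFBP4 held both motifs, IGFBP6 held GGGCGG only and IGFBP5 held neither. A match is a description of the letters and not evidence of binding.

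IGFBP2, which binds IGF-2 with high affinity and is abundant in prostate cancer, was highest in LNCaP. Its siCtrl levels were 936.1, 744.7 and 793.9 CPM in LNCaP, 170.5, 192.2 and 136.0 CPM in 22Rv1, and 203.8, 166.1 and 199.4 CPM in PC3. Every LNCaP library lay above every library of the other lines. The level was 4.98-fold lower in 22Rv1 than in LNCaP (log2 fold change -2.32, SE 0.14, adjusted p = 1.63e-14) and 4.36-fold lower in PC3 (log2 fold change -2.12, SE 0.14, adjusted p = 2.76e-14). PC3 and 22Rv1 differed by 0.19 on the log2 scale (SE 0.16, adjusted p = 0.298), which was within the spread.

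IGFBP4, which inhibits IGF action until the protease PAPPA cleaves it, was the opposite of IGFBP2. It had 732, 743 and 555 counts in the PC3 siCtrl libraries, which is 944.3, 781.1 and 801.9 CPM. It had 9, 2 and 5 counts in LNCaP siCtrl and 2, 2 and 7 counts in 22Rv1 siCtrl. The log2 fold change of PC3 was 6.85 (SE 0.33, adjusted p = 8.89e-18) against LNCaP and 7.32 (SE 0.35, adjusted p = 9.14e-18) against 22Rv1.

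IGFBP6, which prefers IGF-2 over IGF-1, followed IGFBP4. Its PC3 siCtrl levels were 318.6, 246.0 and 244.2 CPM. LNCaP siCtrl libraries held 3, 0 and 1 counts and 22Rv1 siCtrl libraries 2, 6 and 7. The log2 fold change of PC3 was 7.11 (SE 0.36, adjusted p = 8.40e-18) against LNCaP and 5.23 (SE 0.29, adjusted p = 8.10e-17) against 22Rv1. 22Rv1 and LNCaP averaged under 5 counts, so no fold is given between them.

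IGFBP5, the neighbor of IGFBP2 and a binding protein that associates with extracellular matrix, was also highest in PC3, at a lower level. PC3 siCtrl libraries held 30, 29 and 33 counts (38.7, 30.49 and 47.68 CPM), LNCaP siCtrl libraries 1, 2 and 2, and 22Rv1 siCtrl libraries 0, 0 and 0. The log2 fold change of PC3 against LNCaP was 4.01 (SE 0.50, adjusted p = 6.44e-08). Against 22Rv1, where the 3 libraries together held no count, the level in PC3 was at least 9.15-fold higher, with 3 counts in each library taken as the floor (adjusted p = 3.64e-09). The neighboring genes IGFBP2 and IGFBP5 had their highest siCtrl levels in different lines. IGFBP5 met the filter on low counts mainly through PC3 libraries, so nothing is read from this.

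IGFBP3, which like IGFBP2 had counts well above the floor in all 3 lines, varied least between the lines among the 5 binding proteins. Its siCtrl levels were 62.96, 150.4 and 199.3 CPM in LNCaP, 62.46, 80.23 and 105.2 CPM in 22Rv1, and 101.9, 146.1 and 105.5 CPM in PC3. The ranges overlapped in every pair of lines, and LNCaP had the widest. The level was 1.72-fold lower in 22Rv1 than in LNCaP (log2 fold change -0.78, SE 0.25, adjusted p = 0.0108), and this call was lost without LNCaP siCtrl replicate 3 (adjusted p = 0.260) or without 22Rv1 siCtrl replicate 1 (adjusted p = 0.081), with limma (adjusted p = 0.0749) and with the robust edgeR test (adjusted p = 0.0664). PC3 against 22Rv1 gave 0.52 (SE 0.25, adjusted p = 0.0769).

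**Figure D1:**
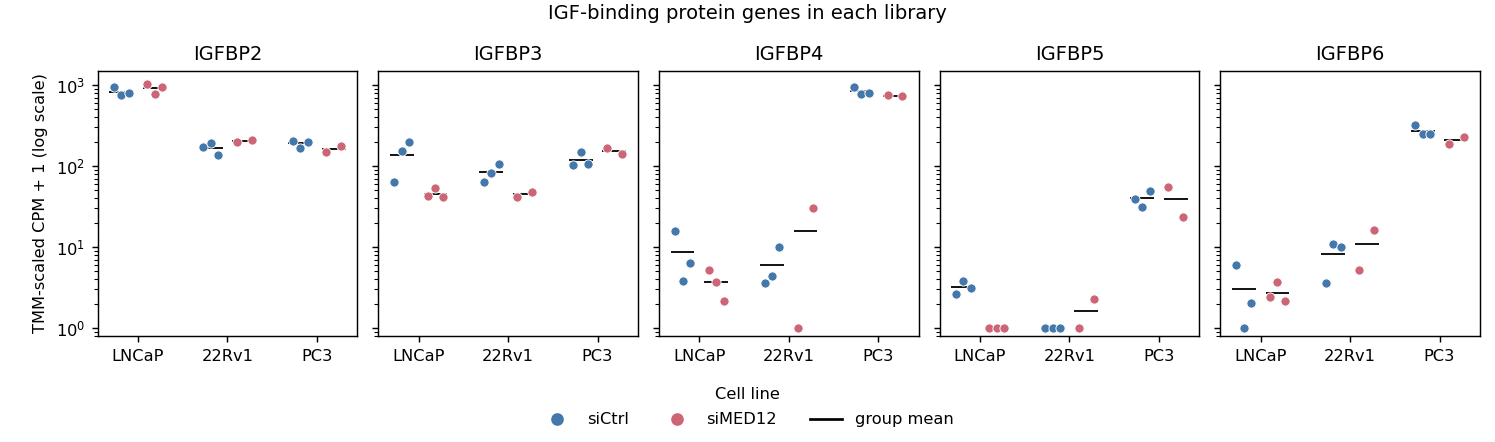
TMM-scaled CPM plus 1 (log axis) of the 5 IGF-binding protein genes in each of the 16 libraries, by cell line on the horizontal axis. Points are libraries, blue for siCtrl and red for siMED12, and lines are group means. IGFBP2 is highest in LNCaP at 744.7 CPM or more, IGFBP4, IGFBP5 and IGFBP6 are highest in PC3, and the single high 22Rv1 point of IGFBP4 is siMED12 replicate 3 at 29.5 CPM.

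The receptors had few counts, and IGF1R and IGF2R were lowest in 22Rv1. IGF1R (chr15:98648539-98964530), the signaling receptor for IGF-1 and IGF-2, had 15, 11 and 9 counts in LNCaP siCtrl, 11, 3 and 6 in PC3 siCtrl and only 0, 1 and 1 in 22Rv1 siCtrl. The 22Rv1 libraries lay below all others. The pooled count per scaled total was 16.7 times higher in LNCaP than in 22Rv1, with an exact 95% counting interval of 4.30 to 143.5 (adjusted p = 2.63e-04 by edgeR). It was 8.87 times higher in PC3 than in 22Rv1, with an interval of 2.16 to 78.3 (adjusted p = 0.00897). The siMED12 libraries of 22Rv1 again held 0 and 1 counts. LNCaP and PC3 differed by 0.91 on the log2 scale (SE 0.51, adjusted p = 0.128), with LNCaP higher and overlapping ranges.

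IGF2R (chr6:159969082-160113507) was counted more often. Its siCtrl levels were 41.42, 42.96 and 50.88 CPM in LNCaP, 13.01, 20.06 and 21.81 CPM in 22Rv1, and 39.99, 30.49 and 57.8 CPM in PC3. 22Rv1 lay below every library of the other lines, 2.50-fold lower than LNCaP (adjusted p = 0.00218), and PC3 was 2.28-fold higher than 22Rv1 (adjusted p = 0.00412). PC3 and LNCaP overlapped, with a log2 difference of -0.13 (SE 0.28, adjusted p = 0.718).

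INSR (chr19:7112255-7294414), the insulin receptor, did not show that order. Its siCtrl levels averaged 19.7 ± 10.3 CPM in LNCaP, 24.0 ± 2.44 CPM in 22Rv1 and 16.7 ± 3.20 CPM in PC3 (SD, n = 3 each). None of the 3 line differences passed the edgeR threshold, and the smallest adjusted p was 0.213, for PC3 against 22Rv1. INSR had 9 to 22 counts in a siCtrl library. Over its 3 siCtrl libraries 22Rv1 held 51 counts of INSR and 2 of IGF1R, while LNCaP held 43 and 35.

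The receptor substrates split the lines in another way. IRS1 (chr2:226731312-226799820) had 34, 63 and 33 counts in PC3 siCtrl, 7, 7 and 8 in LNCaP siCtrl and 3, 2 and 1 in 22Rv1 siCtrl, and no 2 of these ranges overlapped. The level was 5.37-fold higher in PC3 than in LNCaP (log2 fold change 2.42, SE 0.30, adjusted p = 3.07e-08) and 18.1-fold higher than in 22Rv1 (log2 fold change 4.18, SE 0.40, adjusted p = 1.23e-10). IRS1 was also lower in 22Rv1 than in LNCaP (adjusted p = 0.0148). These 2 groups averaged under 5 counts, and their pooled counts gave a ratio of 3.51 with an interval of 1.38 to 10.6.

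IRS2 (chr13:109752695-109786583), the other main substrate, was low where IRS1 was intermediate. LNCaP siCtrl libraries held 2, 0 and 4 counts, 22Rv1 siCtrl libraries 24, 30 and 18, and PC3 siCtrl libraries 35, 14 and 12. 22Rv1 was 12.0-fold (adjusted p = 6.53e-06) and PC3 8.997-fold (adjusted p = 4.67e-05) above LNCaP, with no overlap, and PC3 and 22Rv1 overlapped (log2 difference -0.41, SE 0.35, adjusted p = 0.336). In counts, 22Rv1 thus carried IRS2 with little IRS1, PC3 carried both, and LNCaP carried 22 counts of IRS1 and 6 of IRS2 in all.

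These line differences are read against the whole table, in which many genes differed between the lines. Of the 10 genes, 6 passed the threshold between 22Rv1 and LNCaP (1 higher and 5 lower in 22Rv1), where 43.2% of all tested genes did. Between PC3 and LNCaP 6 passed (5 higher and 1 lower in PC3), where 54.7% of tested genes did. Between PC3 and 22Rv1 6 passed, all higher in PC3, where 54.9% did. The counts of members were thus near the background. The median log2 difference of the 10 genes was -1.05, 1.15 and 2.07 in these comparisons, against 0.0, 0.05 and 0.01 over all tested genes. The 3 comparisons share siCtrl libraries. IGFBP4, IGFBP5, IGFBP6 and IRS1 had fewer than 10 counts, the filter's minimum, in every siCtrl library of LNCaP and 22Rv1. They met the filter mainly through PC3 libraries. IGF1R had 0 or 1 counts in every 22Rv1 library and met the filter through LNCaP and PC3 libraries. IRS2 had 0 to 4 counts in every LNCaP library and met it through 22Rv1 and PC3 libraries. The filter thus partly fixed the direction in which these genes differed from the lines where they were low, also where p-values are given above. Nothing is read from those directions or from these medians.

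**Figure D2:**
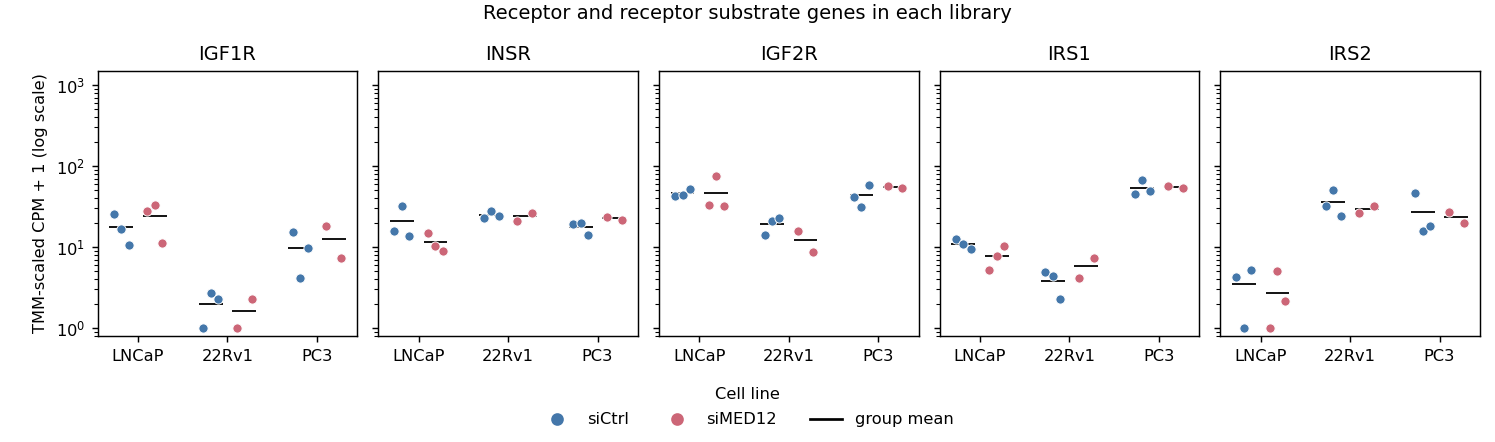
TMM-scaled CPM plus 1 (log axis) of the receptor genes IGF1R, INSR and IGF2R and the receptor substrate genes IRS1 and IRS2 in each of the 16 libraries, by cell line. Points are libraries, blue for siCtrl and red for siMED12, and lines are group means. IGF1R is at or below 1.671 CPM in all 5 libraries of 22Rv1, IRS1 is highest in PC3 and IRS2 is lowest in LNCaP.

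The siMED12 libraries addressed whether MED12 knockdown moved the same genes. IGFBP3 was the member whose response was used in the choice. In LNCaP its siMED12 levels were 41.96, 52.04 and 40.24 CPM, below all 3 siCtrl values (62.96, 150.4 and 199.3 CPM). The siCtrl libraries averaged 137.5 ± 69.1 CPM and the siMED12 libraries 44.8 ± 6.38 CPM (SD, n = 3 each), and the log2 fold change was -1.67 (SE 0.27). The siCtrl libraries spread over a wider range than the siMED12 libraries, and leaving out 1 library at a time gave -1.96 to -1.28, the smallest change without siCtrl replicate 3. In PC3 the siMED12 levels were 163.5 and 138.9 CPM, against 101.9, 146.1 and 105.5 CPM in siCtrl. The PC3 groups overlapped and the log2 fold change was 0.36 (SE 0.26). The effect in PC3 minus the effect in LNCaP was 2.03 (SE 0.38). These values are a description, since they chose the gene.

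22Rv1 was the line that the choice of IGFBP3 did not use. Its siMED12 levels were 40.29 and 47.46 CPM, against 62.46, 80.23 and 105.2 CPM in siCtrl, so that the groups did not overlap. Groups this small can separate by chance, and how many of all tested genes did so was not counted. The log2 fold change was -0.92 (SE 0.33), which did not pass the threshold (unadjusted p = 0.00808, adjusted p = 0.173 by the edgeR quasi-likelihood test). It ranged from -1.10 to -0.70 when libraries were left out in turn. With the PC3 marker excess subtracted from the libraries it was -1.04 (adjusted p = 0.115). It passed with all genes with a count (-0.89, adjusted p = 0.0314) and with a block for the replicate numbers (-0.91, adjusted p = 0.0435). The labels do not say that these numbers pair the libraries. The effect in PC3 minus that in 22Rv1 was 1.28 (SE 0.42, adjusted p = 0.289), and the effect in 22Rv1 minus that in LNCaP was 0.75 (SE 0.43, adjusted p = 0.685), so neither difference passed. The former passed with all genes with a count (1.25, adjusted p = 0.030) and with the block (1.46, adjusted p = 0.0252). Each difference holds a PC3 or LNCaP effect that the choice used, so nothing is read from either.

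**Figure D3:**
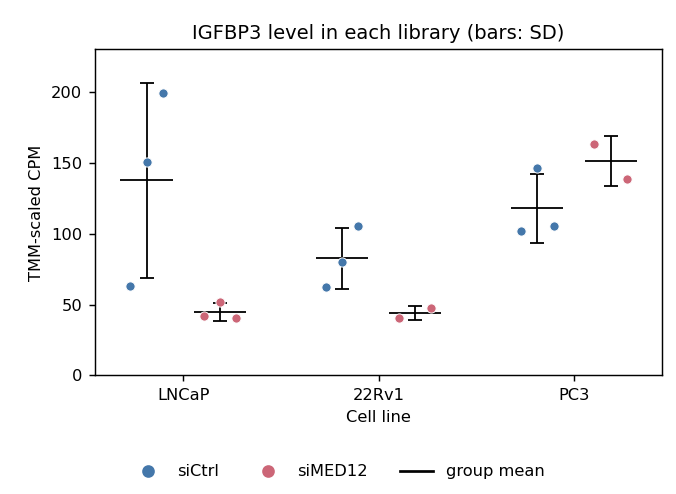
IGFBP3 level in TMM-scaled CPM (linear axis from 0) in each of the 16 libraries, by cell line. Points are libraries, blue for siCtrl and red for siMED12, horizontal lines are group means and vertical bars are SD. The siMED12 libraries of LNCaP and 22Rv1 lie between 40.24 and 52.04 CPM, below every siCtrl library of their line, while those of PC3 lie at 138.9 and 163.5 CPM.

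The other binding proteins had no call in any line. In LNCaP IGFBP2 stayed between 770.0 and 1018 CPM after siMED12, against 744.7 to 936.1 CPM in siCtrl, with a log2 fold change of 0.14 (SE 0.13). In 22Rv1 it was 197.2 and 209.1 CPM against 136.0 to 192.2 CPM, without overlap (0.30, SE 0.17, adjusted p = 0.523 by edgeR). Such small groups can separate by chance. In PC3 IGFBP2 was 146.4 and 174.2 CPM (log2 fold change -0.25, SE 0.18). As a share of the summed binding protein transcripts, IGFBP3 was 3.937% to 6.29% in LNCaP siMED12, against 6.169% to 19.89% in LNCaP siCtrl. The ranges overlapped through siCtrl replicate 1.

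In PC3 the siMED12 libraries of the leading binding proteins lay below the siCtrl libraries, and neither gene passed the threshold. Groups of 2 and 3 libraries can separate by chance, and how many of all tested genes did so was not counted. IGFBP4 was 742.5 and 721.7 CPM, below the siCtrl range of 781.1 to 944.3 CPM (log2 fold change -0.20, SE 0.21). IGFBP6 was 188.6 and 230.2 CPM, below the siCtrl range of 244.2 to 318.6 CPM (log2 fold change -0.38, SE 0.19). IGFBP5 was 54.07 and 22.81 CPM, on both sides of its siCtrl range (0.11, SE 0.32). In LNCaP, IGFBP4 had 3, 2 and 1 counts and IGFBP6 1, 2 and 1 counts after siMED12. IGFBP5 had 0 in all 3 siMED12 libraries, against 1, 2 and 2 in siCtrl, which is at the floor in both groups.

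A single library decided the values of IGFBP4 and IGFBP6 in 22Rv1. IGFBP4 had 0 counts in siMED12 replicate 1 and 23 counts in replicate 3, where siCtrl libraries had 2, 2 and 7. IGFBP6 had 4 and 12 counts, where siCtrl had 2, 6 and 7. Replicate 3 is the library with the raised PC3 markers. In it IGFBP4 stood at 3.502%, IGFBP5 at 3.29% and IGFBP6 at 5.71% of the mean PC3 siCtrl level, and the PC3 markers AXL, ANXA1, VIM, CAV1 and CD44 at 4.97%, 8.603%, 9.73%, 11.3% and 20.1%, with LCN2 at 0. In the 22Rv1 siCtrl libraries IGFBP4 stood at 0.309% to 1.07%, IGFBP6 at 0.965% to 3.72%, AXL at 0.0% to 2.48%, ANXA1 at 1.08% to 1.40%, VIM at 6.09% to 6.63%, CAV1 at 2.51% to 3.18% and CD44 at 12.6% to 18.3% of the PC3 level. In siMED12 replicate 1, IGFBP4 was at 0.0% and IGFBP6 at 1.57%, while ANXA1 (4.45%) and CAV1 (6.57%) were also above the siCtrl range. The fitted log2 fold change of IGFBP4 in 22Rv1 was 1.37 (SE 0.74, adjusted p = 0.488), 2.47 without siMED12 replicate 1 and -5.02 without siMED12 replicate 3, and that of IGFBP6 ran from -0.70 to 1.10. The part of the raised PC3 markers in these values was not tested.

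The receptors and substrates likewise had no call. INSR in LNCaP was 13.99, 9.341 and 8.048 CPM after siMED12, against 14.91, 31.51 and 12.72 CPM in siCtrl, with a log2 fold change of -0.89 (SE 0.38) and groups that overlapped between 12.72 and 13.99 CPM. In PC3 INSR was 22.42 and 20.74 CPM, above every siCtrl library, of which the highest had 18.92 CPM (0.36, SE 0.39). Groups this small can separate by chance. In 22Rv1 the log2 fold change of INSR was -0.07 (SE 0.34, adjusted p = 0.974 by edgeR). IGF1R in LNCaP was 26.58, 32.03 and 10.35 CPM against 9.54 to 24.85 CPM (0.51, SE 0.41), and in PC3 17.15 and 6.221 CPM against 3.154 to 14.19 CPM (0.62, SE 0.62). IGF2R was 7.696 and 14.84 CPM in 22Rv1 siMED12 against 13.01 to 21.81 CPM (log2 fold change -0.64, SE 0.49, adjusted p = 0.664). Its log2 fold changes were -0.0029 (SE 0.28) in LNCaP and 0.37 (SE 0.32) in PC3. Those of IRS1 were -0.51 (SE 0.46) in LNCaP and 0.01 (SE 0.25) in PC3, and those of IRS2 -0.27 (SE 0.38, adjusted p = 0.839) in 22Rv1 and -0.12 (SE 0.45) in PC3.

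Counted over the 10 genes, 1 passed the threshold in LNCaP, IGFBP3, where 0.416% of all tested genes did, and nothing is read from it because the choice used it. An unadjusted p under 0.05 was found for 3 of 10 there and for 7.344% of all tested genes. The 3 were IGFBP3, chosen by this response, IGFBP5, which lay at the floor, and INSR, so no excess is read from them. In 22Rv1 0 of 10 passed by edgeR, where 1.84% of all tested genes did. Of the 10, 1 (IGFBP3) had an unadjusted p under 0.05 by edgeR, as did 11.74% of all tested genes. DESeq2 and limma called 0 members there, and 87 and 136 of all tested genes. In PC3 0 of 10 passed, 0 had an unadjusted p under 0.05, and DESeq2 and limma called 0 of them. Of all tested genes 0.0% passed there (527 had an unadjusted p under 0.05, DESeq2 called 0 and limma 1). For the differences between effects, 0 of 10 passed by edgeR between 22Rv1 and LNCaP (0.189% of all tested genes did). DESeq2 and limma called 0 members there, and 18 and 13 of all tested genes. An unadjusted p under 0.05 by edgeR was found for 2, IGFBP4 and IGFBP5, and for 8.281% of all tested genes. Both had few counts in these lines, so no excess is read from them. Between PC3 and LNCaP the member past the threshold was IGFBP3, chosen for this difference, so nothing is read from it (0.0284% of all tested genes passed). Limma and the robust edgeR test called 0 members there, and 3 of 10 had an unadjusted p under 0.05, as did 5.016% of all tested genes. These were IGFBP3, IGFBP5 and INSR, as for the effect in LNCaP, and no excess is read from them. Between PC3 and 22Rv1 0 passed by edgeR, where 0.0946% of all tested genes did. DESeq2 and limma also called 0 members there, and 16 and 11 of all tested genes. By edgeR 3 members had an unadjusted p under 0.05, as did 9.161% of all tested genes. Those 3 were IGFBP2, IGFBP3 and IGFBP4. IGFBP3 was chosen partly by its PC3 effect, and the 22Rv1 effect of IGFBP4 rested on 1 library, so no excess is read from them. The median log2 fold changes of the 10 genes were -0.55 in LNCaP, 0.11 in 22Rv1 and 0.06 in PC3, against -0.00, 0.01 and -0.04 over all tested genes, and these include members with few counts.

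**Figure D4:**
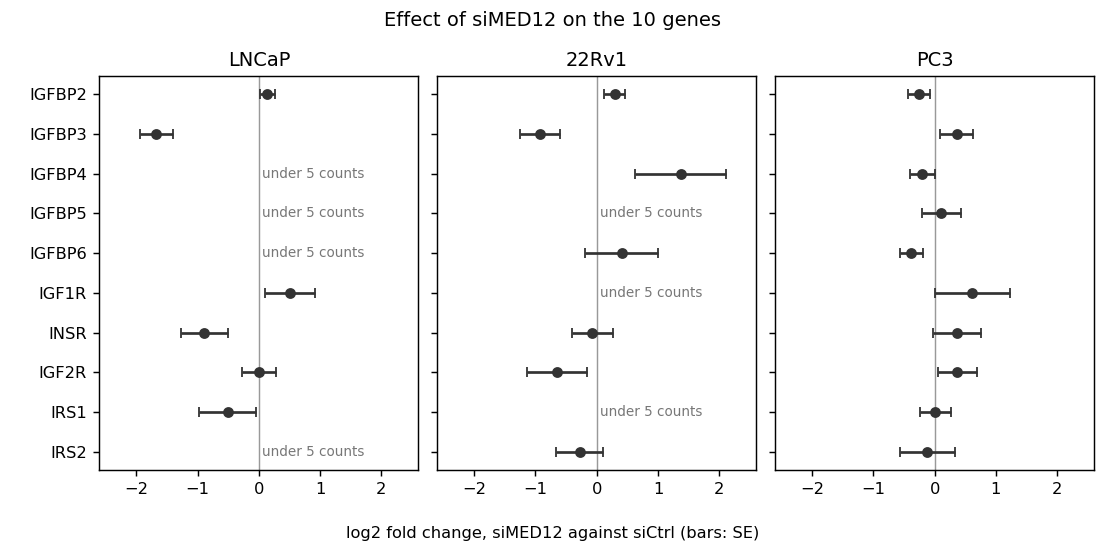
Log2 fold change of siMED12 against siCtrl for the 10 genes in LNCaP, 22Rv1 and PC3. Points are edgeR estimates and bars are SE, and members whose compared libraries averaged under 5 counts are marked as such. IGFBP3 lies at -1.67 in LNCaP, -0.92 in 22Rv1 and 0.36 in PC3.

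The rest of the pathway was described through 60 further genes in 3 lists. Of 16 ligands, other binding proteins and proteases, 4 had enough counts for the test and 0 passed in any line. The ligands themselves were hardly counted: INS had 0 counts in all 16 libraries, IGF1 0 or 1, and IGF2 0 or 1 in LNCaP and 22Rv1 and 1 to 5 in PC3. PAPPA, the protease of IGFBP4, had at most 1 count in a library. STC1 and STC2, which inhibit that protease, were among the tested genes and had 4 to 37 and 8 to 63 counts in a library.

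Of 27 downstream adaptors and kinases, 21 were tested and 0 passed in any line after siMED12. Of 17 negative regulators, 15 were tested and 1, DDIT4, passed in 2 lines. DDIT4 encodes REDD1, an inhibitor of mTOR complex signaling induced by stress. Its mean level was 433.8 ± 110 CPM in LNCaP siCtrl and 188.9 ± 26.1 CPM in siMED12 (SD, n = 3 each), and its log2 fold change was -1.21 (SE 0.24), with an adjusted p of 0.0113. In 22Rv1 it was 316.4 ± 142 CPM (n = 3) and 92.3 ± 69.0 CPM (n = 2), and it fell by 1.82 on the log2 scale (SE 0.31, adjusted p = 5.78e-04). In PC3 the change was 0.18 (SE 0.37, adjusted p = 0.988). The median log2 fold changes of the lists after siMED12 lay between -0.23 and 0.09.

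The transcripts whose levels over the 16 libraries were most like IGFBP3, by Pearson's r of log2(CPM + 1) among the 6719 genes that averaged 20 CPM or more, were DOCK6 (r = 0.852), CCDC6 (r = 0.804) and MTHFD1L (r = 0.790). These correlations are a description over libraries that share lines and treatments. The ranking used the same values, so the likeness of the group means below was chosen, and nothing is read from it. CCDC6 averaged 45.4 and 32.2 CPM in LNCaP siCtrl and siMED12, 34.4 and 23.4 CPM in 22Rv1, and 57.3 and 70.9 CPM in PC3. MTHFD1L averaged 52.6 and 37.4, 51.2 and 38.7, and 62.0 and 69.8 CPM in the same order. DOCK6 averaged 24.2 and 15.4, 17.9 and 15.7, and 27.6 and 27.3 CPM.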

How the data were processed

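RNA from spheroids was sequenced by the study with BRB-seq, a 3′ tag method that barcodes each sample at reverse transcription, and aligned and counted with STARsolo on GRCh38.p13 with Gencode release 43. Any collapsing of unique molecular identifiers is not given in the sources used here. The authors deposited raw counts per gene and a table of log2 CPM, which was recomputed from the counts to within 5e-14 (TMM, trimmed mean of M values, and prior count 2). Groups and replicate numbers came from the labels.

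Counts of all 16 libraries were fitted with edgeR 4.0.16 (R 4.3.3; quasi-likelihood F test), with 6 group means, TMM scaling and filterByExpr (minimum count 10, minimum total 15), which kept 10566 genes. P-values are two-sided and adjusted by Benjamini-Hochberg over all tested genes, with a threshold of 0.05. SE is the log2 fold change divided by the square root of F. A fold is given only where the compared libraries averaged at least 5 counts, a limit set after the values were seen. Ratios of few counts have exact 95% binomial intervals.

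The 10 genes, the lists and the tests were chosen with earlier results of these data known. Named genes are the 10 members, MED12, every list gene past the threshold after siMED12, ligands and proteases by count, and the 3 genes most correlated with IGFBP3. STC1 and STC2 were added after their values were seen. Alternatives were relative log expression scaling, DESeq2 1.42.0, limma 3.58.1 on the deposited log2 CPM, all genes with a count, only the groups compared, each library left out, a replicate block, subtraction of carried-over counts and, added after seeing the data, the legacy and robust edgeR tests. Promoters are from RefSeq, and gene coordinates from Gencode release 44.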

Additional observations from a re-analysis of the deposited data

How the results depend on the processing

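In the siCtrl line differences the number of members past the threshold stayed within 1.5 times the value given (4 to 8 between 22Rv1 and LNCaP), while single calls moved. IGFBP3 was lost between 22Rv1 and LNCaP in 4 fits and gained between PC3 and 22Rv1 in 4 (all genes with a count, only the groups compared, without LNCaP siCtrl replicate 1, without 22Rv1 siCtrl replicate 3). Between PC3 and LNCaP IGF1R was gained in 2 (without LNCaP siCtrl replicate 3 or PC3 siCtrl replicate 1) and IGFBP3 in 1 (without LNCaP siCtrl replicate 1), and IRS2 was gained between PC3 and 22Rv1 in 1 (without PC3 siCtrl replicate 1). For members with a fold, 1204 of the recomputed values kept their direction and side of the threshold, 36 changed sign, 13 passed newly and 17 no longer passed. The count in LNCaP became 0 with the robust edgeR test and 0 to 1 with 1 library left out, lost without LNCaP siCtrl replicate 3 (IGFBP3 adjusted p = 0.0573). The count in 22Rv1 became 1 with all genes with a count (IGFBP3, -0.89, adjusted p = 0.0314), 1 with the replicate block (IGFBP3, -0.91, adjusted p = 0.0435) and 1 with carried-over counts subtracted (IGFBP6), and was 0 to 1 with 1 library left out (IGFBP4 without siMED12 replicate 1, adjusted p = 0.0179). The PC3 minus LNCaP effect difference fell to 0 with limma and with the robust edgeR test, and to 0 to 1 with 1 library left out, to 0 without LNCaP siCtrl replicate 2 or 3, LNCaP siMED12 replicate 1, 2 or 3, 22Rv1 siCtrl replicate 2, PC3 siCtrl replicate 3 or PC3 siMED12 replicate 1 or 3. The PC3 minus 22Rv1 effect difference holds the PC3 effect of IGFBP3, which the choice used. Its count became 1 with all genes with a count, 1 with the replicate block (IGFBP3, 1.46, adjusted p = 0.0252) and 0 to 1 with 1 library left out. Except where fewer libraries were fitted, the cause was not tested.

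Signs turned for changes within their error or at few counts, with 1 exception. IGFBP3 between PC3 and LNCaP siCtrl (-0.26, SE 0.23) was 0.0914 without LNCaP siCtrl replicate 3. IGF2R in LNCaP (-0.0029) was 0.0187 with DESeq2, 0.00598 with only the groups compared, 0.0114 with carried-over counts subtracted and 0.00351 with the legacy edgeR test. With carried-over counts subtracted, IGFBP4 in 22Rv1 was -4.14 and IGFBP6 -5.32, because 7.21% of the PC3 level was taken from siMED12 replicate 3, more than the 3.502% and 5.71% at which they stood. IGFBP5 in PC3 was -0.11 with limma. With 1 library left out, the range was -0.53 to 0.24 for IGF2R in LNCaP, -5.02 to 2.47 for IGFBP4, -0.70 to 1.10 for IGFBP6, -0.24 to 0.093 for INSR and -0.51 to 0.0375 for IRS2 in 22Rv1, and -0.74 to 0.50 for IGFBP5, -0.41 to 1.20 for IGF1R, -0.10 to 0.24 for IRS1 and -0.45 to 0.55 for IRS2 in PC3. Between PC3 and LNCaP siCtrl it was -0.56 to 0.0914 for IGFBP3, -0.38 to 0.094 for IGF2R and -0.53 to 0.32 for INSR.

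With the replicate block, INSR in 22Rv1 was 0.0119, IRS2 in 22Rv1 0.0377 and IGFBP5 in PC3 -0.0868. The deviations of same-numbered libraries correlated at 0.0787 to 0.253, under 0.1 in 1 of 7 pairs, so the numbers were not taken to pair the samples, although every siMED12 library correlated best with its own number, a hint from the data and not the design. The block moved the count of all genes past the threshold from 44 to 117 in LNCaP, from 194 to 312 in 22Rv1 and from 0 to 20 in PC3. Members filtered out with only the groups compared have no value there. Over all tested genes, DESeq2 called 23 in LNCaP and 87 in 22Rv1, and limma and the robust edgeR test 29 each in LNCaP. Receptor and substrate genes had 0 to 63 counts in a library, which limits the precision of their changes to the SE given.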
